A study of Mus musculus with 4 samples.

Results

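Cholesterol synthesis, uptake and efflux was followed in brown adipose tissue (BAT) through 31 genes. They were taken by symbol from a list of the pathway's enzymes, regulators, receptors and transporters. The rule reads symbols only, but the list was chosen with earlier results of these data known, so it was not blind to them. Each of the 31 symbols was found among the 55287 listed, and all of them passed the filter that left 12877 genes for testing, an averaged level above 1 FPKM in at least one genotype. FPKM counts sequenced fragments relative to transcript length and to the total mapped in that library. The BAT came from 4 male mice aged 15 weeks, 2 control Sox4f/f mice, which carry floxed Sox4 alleles without Cre and are called wild type in the labels, and 2 littermates labelled Sox4-MKO, which carry the same floxed alleles and a Cre recombinase driven by Myf5. Myf5-Cre acts in the lineage that gives brown adipocytes and skeletal muscle, so the deletion is not limited to fat cells and does not reach every cell of the tissue. The labels name the cell type as adipocytes, but the material was whole tissue, in which fewer cells of a type and less RNA per cell cannot be told apart.

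Cells make cholesterol from acetyl-CoA through mevalonate and squalene, and nearly all enzymes of the route are transcribed under the control of SREBP2, a membrane-bound factor that SCAP escorts out of the endoplasmic reticulum when sterols are scarce and that INSIG proteins hold back when sterols are plentiful. Cholesterol also enters cells in lipoproteins, is carried out of lysosomes by the NPC proteins, is stored as esters and leaves through ABC transporters to acceptors such as apolipoprotein E. Brown fat takes up large amounts of lipoprotein lipid when it produces heat.

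Libraries held an estimated 12200000 to 16900000 fragments, and the least covered member value (Mvd in Sox4f/f mouse 1) rested on about 78 fragments. Sox4 itself had 1.98 and 1.06 FPKM in the controls and 0.98 and 3.06 FPKM in the Sox4-MKO-labelled libraries (log2 fold change 0.20, with a limma standard error, SE, of 0.43, adjusted p = 0.843). Its mRNA therefore did not separate the genotypes, and every direction below follows the labels, with Sox4-MKO mouse 1 and mouse 2 standing for the libraries so labelled. Brown adipocyte markers were present in all libraries, and 8 of 11 were lower in the Sox4-MKO-labelled libraries at an unadjusted p under 0.05. After Benjamini-Hochberg adjustment over the 12877 genes no gene passed 0.05 by limma (0.0%), the smallest adjusted p was 0.191, and 2090 genes (16.2%) had an unadjusted p under 0.05. With 2 mice against 2, an exact permutation test cannot give a two-sided p below 0.333.

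The promoters of 4 synthesis genes with large differences, and of Mvk, whose levels overlapped between the genotypes, are shown first because SREBP2 acts next to the CCAAT-binding factor NF-Y at such promoters. Each is the 250 bases before the RefSeq start site, on the strand of the gene, in build GRCm38.p6. Capitals mark CCAAT, written ATTGG where it lies on the other strand, and in Hmgcs1 also TCACNCCAC, a form of the sterol regulatory element. The regions are chr13:119690101-119690350 (plus strand) for Hmgcs1, chr8:122443423-122443672 (minus) for Mvd, chrX:72918271-72918520 (plus) for Nsdhl, chr9:42264301-42264550 (minus) for Sc5d and chr5:114444019-114444268 (plus) for Mvk.
Hmgcs1: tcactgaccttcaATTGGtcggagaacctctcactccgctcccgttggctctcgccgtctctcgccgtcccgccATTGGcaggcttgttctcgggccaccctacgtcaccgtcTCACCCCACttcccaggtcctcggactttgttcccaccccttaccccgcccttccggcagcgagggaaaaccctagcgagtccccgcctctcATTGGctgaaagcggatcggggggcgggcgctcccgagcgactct
Mvd: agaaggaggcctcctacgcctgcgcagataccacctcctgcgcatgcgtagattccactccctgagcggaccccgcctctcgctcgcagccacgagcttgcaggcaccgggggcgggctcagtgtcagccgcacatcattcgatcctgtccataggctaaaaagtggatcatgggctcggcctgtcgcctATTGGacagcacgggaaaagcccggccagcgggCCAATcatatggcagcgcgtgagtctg
Nsdhl: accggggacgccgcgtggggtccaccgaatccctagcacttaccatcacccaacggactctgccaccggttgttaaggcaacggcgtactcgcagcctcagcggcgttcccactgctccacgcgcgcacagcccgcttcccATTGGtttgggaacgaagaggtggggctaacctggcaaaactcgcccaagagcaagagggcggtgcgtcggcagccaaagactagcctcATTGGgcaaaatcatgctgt
Sc5d: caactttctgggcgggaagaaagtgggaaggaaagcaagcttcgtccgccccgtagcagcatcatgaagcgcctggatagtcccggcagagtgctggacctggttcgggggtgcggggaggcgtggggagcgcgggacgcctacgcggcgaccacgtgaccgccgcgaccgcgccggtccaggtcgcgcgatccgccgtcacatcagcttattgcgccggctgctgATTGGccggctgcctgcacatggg
Mvk: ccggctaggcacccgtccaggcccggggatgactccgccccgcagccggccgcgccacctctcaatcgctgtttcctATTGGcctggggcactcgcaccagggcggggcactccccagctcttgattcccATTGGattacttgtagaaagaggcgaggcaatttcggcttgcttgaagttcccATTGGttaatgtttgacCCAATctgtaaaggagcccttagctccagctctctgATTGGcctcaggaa
Of the 31 members, 24 had a RefSeq promoter entry. Fdps, Fdft1, Sqle, Scarb1, Abcg1, Npc1 and Stard4 had none and were not searched. CCAAT was searched on both strands and was found before all 13 synthesis genes with an entry and before 7 of the 11 other members, the exceptions being Abca1, Apoe, Lrp1 and Scap. Over all 27025 genes with an entry the share was 37.5%. Those genes were not limited to ones expressed in this tissue, as all members were, so the sets are unlike. The element TCACNCCAC, also searched on both strands, was found in 1.22% of all genes and among the members in Hmgcs1 alone, at -137 to -129 from the start. Other forms of the sterol regulatory element were not searched. No match of one motif overlapped the other in a member. Mvk held 5 CCAAT matches, more than Hmgcs1 with 3 or Sc5d with 1. A match is a description of letters, not of a bound site.

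**Figure D1:**
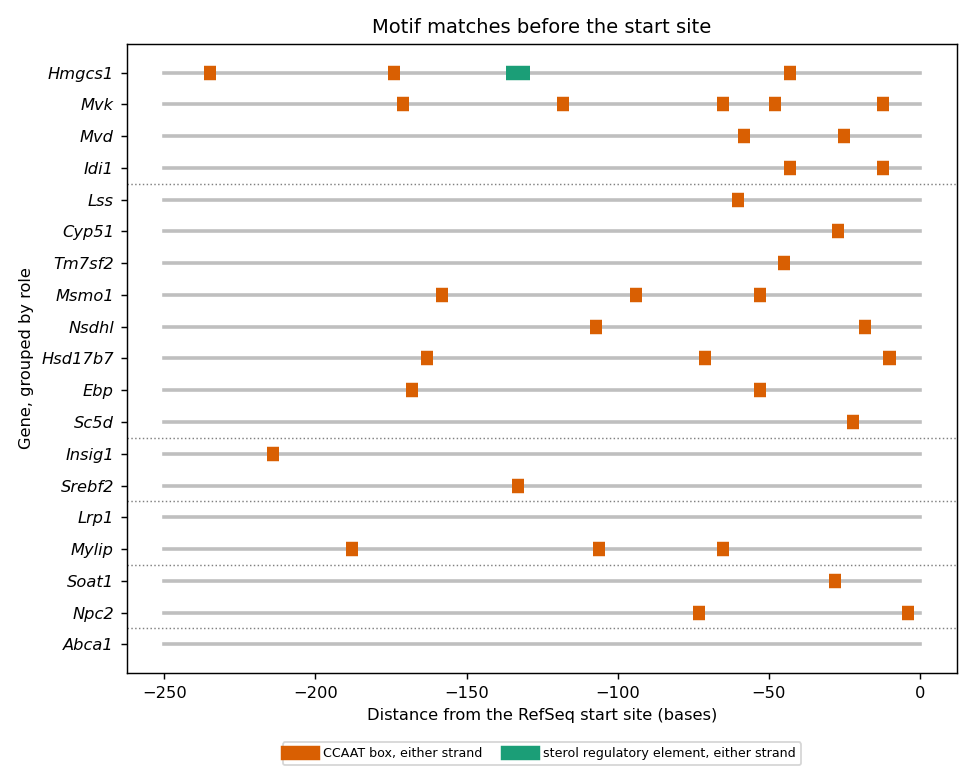
Position of motif matches in the 250 bases before the RefSeq start site (horizontal axis, bases from the start), for the 19 members with a single promoter entry, grouped by role with dotted lines between groups. Orange blocks are CCAAT on either strand and the green block is TCACNCCAC. Each of the 12 synthesis genes shown holds at least 1 orange block, and the green block appears in Hmgcs1 alone.

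Of the 16 enzymes of cholesterol synthesis, 8 had higher levels under the Sox4-MKO label with an unadjusted p below 0.05, 1 was lower (Hmgcs1, the first enzyme of the list) and 7 did not pass. Among all genes tested 7.95% were higher and 8.28% were lower by the same rule. Because the list was chosen with earlier results of these data known, these counts are a description and not a test. The median log2 fold change of the enzymes was 0.62, against -0.05 over all genes tested, and their median level was 9.95 FPKM in the controls and 14.0 FPKM under the Sox4-MKO label. The groups did not overlap at 13 enzymes, 11 of them higher and 2 lower, where 21.7% and 29.6% of all genes did so, 51.3% together. Under the 3 other scalings 7 or 8 enzymes were higher and their median lay between 0.60 and 0.68. Of the 15 members outside synthesis none was higher and 1, Apoe, was lower at that p, and their median log2 fold change was 0.02.

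**Figure D2:**
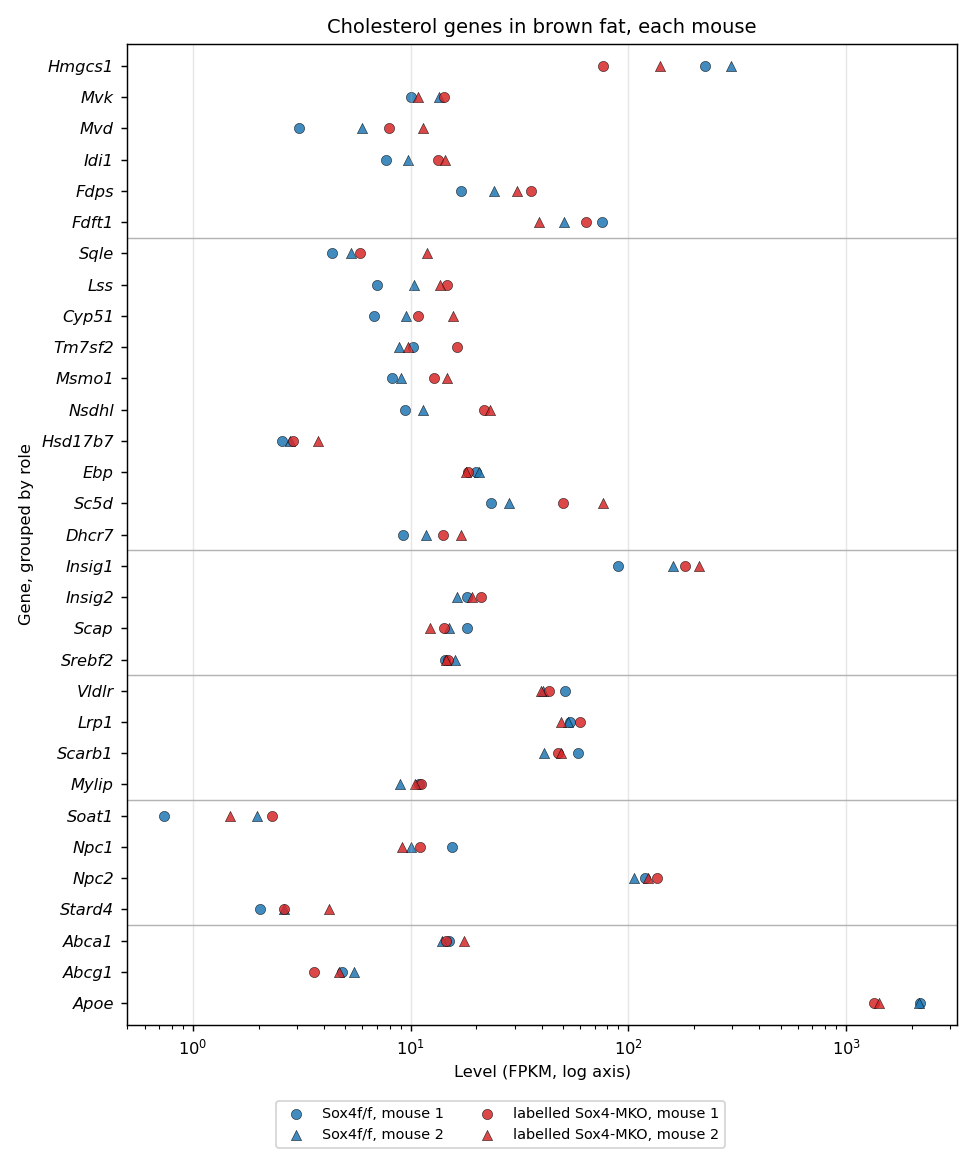
Level of the 31 genes in each of the 4 libraries (horizontal axis, FPKM on a log axis), grouped by role with lines between the groups. Blue marks are Sox4f/f and red marks are the libraries labelled Sox4-MKO, circles mouse 1 and triangles mouse 2, with no averages drawn. Red lies right of blue at 11 of the 16 synthesis enzymes in the upper blocks, and left of blue at Hmgcs1, Ebp, Scap, Abcg1 and Apoe.

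Hmgcs1 (chr13:119690379-119708260, plus strand), the cytosolic synthase that condenses acetyl groups into hydroxymethylglutaryl-CoA, was the most abundant of the 16 synthesis transcripts in each library, by a wide margin in the controls and by a narrow one over Fdft1 in Sox4-MKO mouse 1. It had 225.3 and 296.0 FPKM in the controls and 76.4 and 139.6 FPKM in the Sox4-MKO-labelled libraries. Both latter values lay below both former ones, although the libraries within each genotype differed by 1.31 and 1.83 times. The mean was 260.6 ± 50.0 FPKM in the controls and 108 ± 44.7 FPKM under the other label (SD, n = 2 mice each), a ratio of 0.414. The log2 fold change was -1.31 (limma SE 0.33, adjusted p = 0.222). Leaving out Sox4-MKO mouse 1 gave -0.88, and leaving out Sox4f/f mouse 2 gave -1.12 with an unadjusted p of 0.0876, above the threshold. Hmgcs1 made up 51.2% and 57.2% of the summed synthesis FPKM in the Sox4f/f mice, and 20.2% and 31.1% in the other libraries. The remaining 15 enzymes together had 214.9 and 221.9 FPKM in the controls and 301.9 and 309.7 FPKM in the Sox4-MKO-labelled libraries. Between the genotypes their sum was thus higher where Hmgcs1 was lower. Within each genotype, the mouse with more Hmgcs1 also had the higher sum. Those sums lay close together and n was 2, so this order shows no relation between them. The ratio of Hmgcs1 to Fdps was 13.3 and 12.2 in Sox4f/f against 2.15 and 4.53. An antisense gene, Gm48342, overlaps Hmgcs1 and had at most 0.673 FPKM in any library.

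The next enzymes carry mevalonate to isoprenoid units and squalene. Mvd (chr8:122433601-122443422, minus strand), which decarboxylates mevalonate diphosphate to the first isoprenoid unit, had 3.07 and 5.95 FPKM in the controls and 7.96 and 11.34 FPKM in the Sox4-MKO-labelled libraries. These groups did not overlap, and the Sox4f/f libraries differed from each other by 1.93 times. The mean was 4.51 ± 2.03 FPKM against 9.65 ± 2.39 FPKM (SD, n = 2 each), 2.14 times as high under the Sox4-MKO label. The log2 fold change was 0.98 (limma SE 0.33, adjusted p = 0.270). It did not pass without Sox4f/f mouse 1 (0.60), Sox4-MKO mouse 1 (1.21) or Sox4-MKO mouse 2 (0.75). Idi1, the isomerase that turns this unit into its allylic partner, had 7.69 and 9.74 FPKM in the controls and 13.3 and 14.4 FPKM under the other label (log2 fold change 0.62, limma SE 0.17, adjusted p = 0.232). Fdps, which joins the units to farnesyl diphosphate, had 17.0 and 24.3 FPKM against 35.5 and 30.8 FPKM (log2 fold change 0.68, limma SE 0.21, adjusted p = 0.253). Neither gene overlapped between the genotypes. Without Sox4f/f mouse 1 the log2 fold changes of Idi1 and Fdps were 0.47 and 0.43, with unadjusted p of 0.0925 and 0.104 by limma. Neither passed without Sox4-MKO mouse 1 (0.67 and 0.58) or Sox4-MKO mouse 2 (0.57 and 0.78). Mvk, the kinase that first phosphorylates mevalonate, had 10.07 and 13.53 FPKM in the controls against 14.25 and 10.82 FPKM in the other libraries, which interleaved. Fdft1, squalene synthase, had 75.8 and 50.6 FPKM against 63.7 and 38.8 FPKM, so the first mouse of each genotype was above the second and the groups overlapped. Fdft1 lies across the gene for cathepsin B (Ctsb) on the opposite strand, which had 367.6 to 473.1 FPKM, and whether fragments were counted by strand is not given in the sources used here. Of these 6 early enzymes, 3 were higher, 1 was lower and 2 did not pass at an unadjusted p under 0.05, with a median log2 fold change of 0.35.

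Among the 10 enzymes from squalene to cholesterol, 5 were higher and none was lower at that p, with a median log2 fold change of 0.62. Sc5d (chr9:42251595-42264256, minus strand), the desaturase that acts shortly before the end of the route, had 23.5 and 28.2 FPKM in the controls and 49.8 and 76.1 FPKM in the Sox4-MKO-labelled libraries. The lower of the latter was well above both Sox4f/f mice. Its mean was 25.9 ± 3.37 FPKM in the controls and 63.0 ± 18.6 FPKM under the other label (SD, n = 2 each), a ratio of 2.44. The log2 fold change of 1.23 (limma SE 0.24, adjusted p = 0.205) was the highest of the 31 members.

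Nsdhl (chrX:72918557-72958514, plus strand), a dehydrogenase in the removal of methyl groups from sterols, had 9.38 and 11.4 FPKM in the controls against 21.7 and 23.2 FPKM in the other libraries. The values within each genotype differed by 1.22 and 1.07 times, far less than the difference between genotypes. The mean was 10.4 ± 1.44 FPKM against 22.4 ± 1.04 FPKM (SD, n = 2 each), a ratio of 2.16, with a log2 fold change of 1.05 (limma SE 0.15, adjusted p = 0.196). Nsdhl and Sc5d were the 2 of the 10 called members that kept an unadjusted p under 0.05 whichever library was left out, with log2 fold changes from 0.92 to 1.17 and from 0.93 to 1.53.

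Msmo1, the oxygenase that works with Nsdhl in the same demethylation, had 8.24 and 9.004 FPKM in the controls and 12.8 and 14.7 FPKM in the Sox4-MKO-labelled libraries (log2 fold change 0.62, limma SE 0.15, adjusted p = 0.216). Lss, which cyclizes squalene epoxide to lanosterol, had 6.98 and 10.3 FPKM against 14.7 and 13.7 FPKM (log2 fold change 0.67, limma SE 0.21, adjusted p = 0.256). Dhcr7, the reductase of the last step of one branch, had 9.24 and 11.7 FPKM against 14.0 and 17.0 FPKM (log2 fold change 0.53, limma SE 0.19, adjusted p = 0.285). At all of these genes both libraries labelled Sox4-MKO were above both Sox4f/f mice. Without Sox4f/f mouse 1 the log2 fold changes were 0.56 for Msmo1, 0.42 for Lss and 0.37 for Dhcr7, and none of them passed. Without Sox4-MKO mouse 2 they were 0.52, 0.72 and 0.40, and none passed either. Without Sox4-MKO mouse 1 Lss (0.63) and Dhcr7 (0.66) did not pass, nor did Dhcr7 without Sox4f/f mouse 2 (0.68).

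Sqle, squalene epoxidase, had 4.37 and 5.34 FPKM in the controls against 5.86 and 11.9 FPKM in the other libraries, so most of its difference lay in Sox4-MKO mouse 2. Cyp51, the lanosterol demethylase, had 6.80 and 9.54 FPKM against 10.8 and 15.6 FPKM and shares its locus with Akap9 on the opposite strand. Hsd17b7, a keto reductase of the demethylation that involves Msmo1 and Nsdhl, was the lowest enzyme, at 2.57 and 2.79 FPKM against 2.89 and 3.75 FPKM. These 3 genes were without overlap but did not pass (unadjusted p of 0.106, 0.0610 and 0.317 by limma), except that Sqle (1.14) and Cyp51 (0.88) passed without Sox4-MKO mouse 1. Tm7sf2, a sterol reductase, had 10.2 and 8.79 FPKM in the controls against 16.3 and 9.67 FPKM in the other libraries. Only Sox4-MKO mouse 1 was set apart, and without mouse 2 of that label the log2 fold change was 0.72. Tm7sf2 overlaps Vps51 on the same strand, so strand could not separate their fragments where they overlap. Vps51 had 17.54 and 18.31 FPKM in the controls and 11.18 and 13.53 FPKM in the other libraries. Ebp, the sterol isomerase, was the one late enzyme with lower values under the Sox4-MKO label, at 18.2 and 17.9 FPKM where the controls had 19.95 and 20.7 FPKM (log2 fold change -0.16, limma SE 0.12, adjusted p = 0.544). The ratio of Sc5d to Dhcr7 was 2.54 and 2.41 in Sox4f/f and 3.56 and 4.47 in the other libraries.

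**Figure D3:**
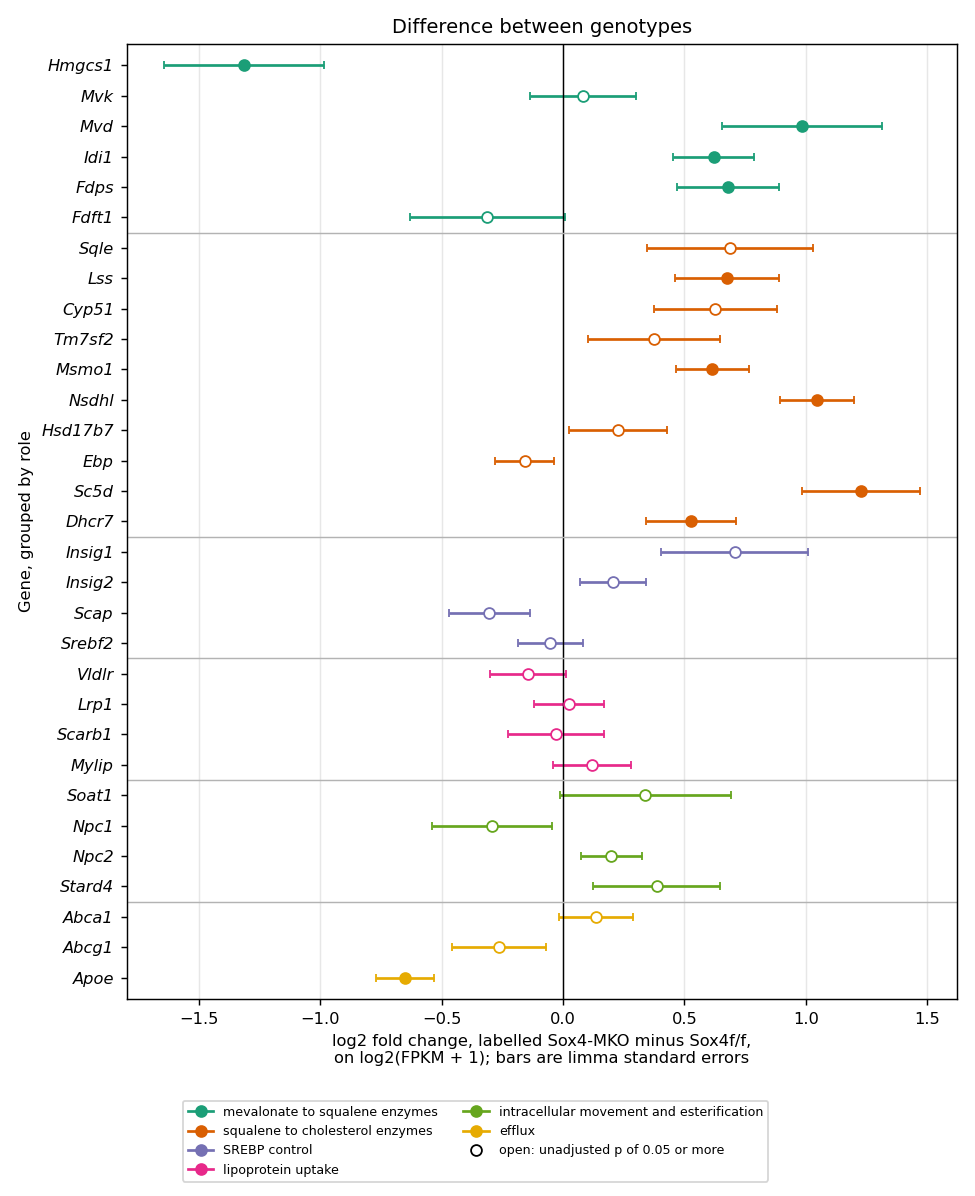
Log2 fold change of each member, libraries labelled Sox4-MKO minus Sox4f/f, on the log2(FPKM + 1) scale (horizontal axis), colored by role, with limma standard errors as bars. Filled circles have an unadjusted p under 0.05 and none passed after adjustment over all genes. Synthesis enzymes reach from -1.31 (Hmgcs1) to 1.23 (Sc5d), and outside synthesis the filled circle is Apoe at -0.65.

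The synthesis enzymes also differed between mice of the same genotype. Sox4f/f mouse 1 was the lowest of the 4 libraries at 12 of the 16 enzymes, and Sox4f/f mouse 2 at 1. Over all genes tested, mouse 1 was lowest at 22.7%, but these shares are not like for like. Of the 16 enzymes 13 had a positive log2 fold change, which by itself makes a control likelier to be lowest. Sox4f/f mouse 2 had more FPKM than mouse 1 at 14 of 16 enzymes and at 5 of the 15 other members, and Sox4-MKO mouse 2 more than mouse 1 at 10 of 16. The count of enzymes called higher depended on the libraries used. It was 2 without Sox4f/f mouse 1 (Nsdhl and Sc5d), 7 without Sox4f/f mouse 2, 5 when Sox4-MKO mouse 1 was left out and 3 when mouse 2 of that label was (Nsdhl, Sc5d and Tm7sf2). The median log2 fold change of the enzymes remained above that of all genes in each of these fits, at 0.43, 0.73, 0.64 and 0.46 in the same order.

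**Figure D4:**
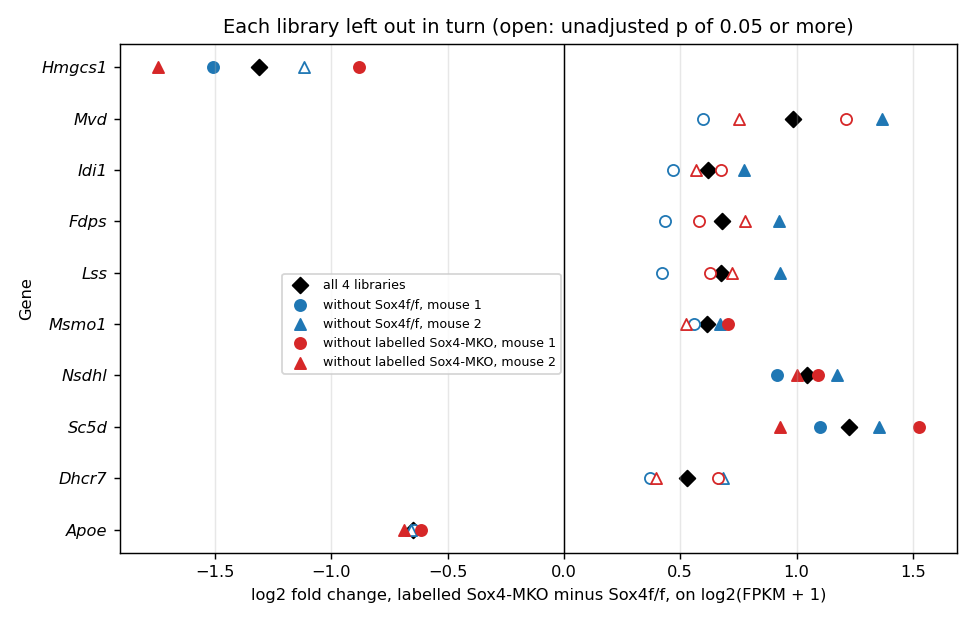
Log2 fold change (horizontal axis, log2(FPKM + 1) scale) of the 10 members with an unadjusted p under 0.05, with all 4 libraries (black diamonds) and with each library left out (blue for a Sox4f/f mouse left out, red for one labelled Sox4-MKO, circles mouse 1, triangles mouse 2). Open marks have an unadjusted p of 0.05 or more. No mark crosses 0, Nsdhl and Sc5d have filled marks throughout, and the marks of Mvd spread from 0.60 to 1.37.

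The genes that control SREBP2 gave a mixed picture, with none of 4 passing and a median log2 fold change of 0.08. Insig1, the retention protein whose own gene is a well-known SREBP target, had 89.7 and 160.8 FPKM in the controls and 182.9 and 211.4 FPKM in the Sox4-MKO-labelled libraries. The groups did not overlap, but Sox4f/f mouse 2 lay nearer to the other genotype than to mouse 1. The log2 fold change was 0.71 (limma SE 0.30, adjusted p = 0.342), 0.29 without Sox4f/f mouse 1 and 1.12 without Sox4f/f mouse 2, where it passed with an unadjusted p of 0.0083. Insig2, its relative, had 18.2 and 16.3 FPKM against 20.96 and 19.15 FPKM, so the ratio of Insig1 to Insig2 was lowest in Sox4f/f mouse 1 at 4.93 and 8.72 to 11.0 elsewhere. Scap, the escort, had 18.2 and 14.9 FPKM in the controls against 14.2 and 12.2 FPKM in the other libraries. Srebf2, which encodes SREBP2, had 14.4 and 16.0 FPKM against 14.8 and 14.5 FPKM and overlapped. SREBP2 activity is set by cleavage of the protein, which mRNA levels do not measure.

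Uptake genes overlapped between the genotypes at all 4 members, and their median log2 fold change was -0.0014. Vldlr, the receptor for triglyceride-rich lipoproteins, had 51.2 and 40.7 FPKM in the controls against 43.0 and 39.5 FPKM in the other libraries, with the log2 fold change farthest from 0 in the group, -0.14 (limma SE 0.16, adjusted p = 0.674). Lrp1, a large remnant receptor, had 53.7 and 52.9 FPKM against 59.9 and 49.0 FPKM. Scarb1, the receptor for high-density lipoprotein, had 58.6 and 41.2 FPKM against 47.6 and 48.8 FPKM. Mylip, the ubiquitin ligase that removes lipoprotein receptors, had 10.9 and 8.92 FPKM against 11.1 and 10.5 FPKM. In each of these genes the spread within at least one genotype was wider than the distance between the means.

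Genes of movement inside the cell and of ester storage likewise did not pass, with a median log2 fold change of 0.27 over 4 members. Npc2, the soluble lysosomal carrier, was abundant at 118.6 and 106.2 FPKM in the controls against 135.6 and 122.7 FPKM in the other libraries. It was without overlap, with a log2 fold change of 0.20 (limma SE 0.13, adjusted p = 0.478). Npc1, its membrane partner, had 15.53 and 10.02 FPKM against 11.0 and 9.08 FPKM and overlapped. It shares its locus with Rmc1 on the opposite strand, which had 17.3 to 19.6 FPKM, with the same limit on strand as for Fdft1. Stard4, a cytosolic sterol carrier, had 2.04 and 2.63 FPKM against 2.62 and 4.21 FPKM, with the largest log2 fold change of the group, 0.39 (limma SE 0.26, adjusted p = 0.502). Soat1, which esterifies cholesterol, had the lowest level of all members, at 0.739 and 1.96 FPKM against 2.32 and 1.48 FPKM, and its Sox4f/f libraries differed by 2.65 times.

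Apoe (chr7:19696109-19699188, minus strand), the apolipoprotein that accepts cellular cholesterol and binds lipoprotein receptors, was the most abundant member and the other member called lower. It had 2177 and 2155 FPKM in the controls and 1345 and 1414 FPKM in the Sox4-MKO-labelled libraries. The mice within a genotype were close and the groups lay far apart. The mean was 2166 ± 16.0 FPKM against 1379 ± 49.0 FPKM (SD, n = 2 each), a ratio of 0.637. The log2 fold change was -0.65 (limma SE 0.12, adjusted p = 0.196) and stayed between -0.69 and -0.61 with any library left out, although the unadjusted p was 0.0603 without Sox4f/f mouse 1 (-0.64) and 0.0502 without Sox4f/f mouse 2 (-0.66). After quantile normalization, which forces the same distribution on each library, it was -0.32 with an unadjusted p of 0.110. The efflux transporters did not pass. Abca1, which loads lipid-poor apolipoproteins, had 15.0 and 13.9 FPKM in the controls against 14.5 and 17.5 FPKM in the other libraries, and Abcg1, which exports to mature particles, had 4.81 and 5.49 FPKM against 3.60 and 4.69 FPKM.

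Over all 31 members, 8 were higher, 2 lower and 21 did not pass at an unadjusted p under 0.05, with a median log2 fold change of 0.21. The same counts of 8 and 2 were found after rescaling the libraries without mitochondrially encoded genes and Ucp1, where 10.3% of all genes were higher and 5.78% lower. A further list of 43 genes of the same pathway, of which 33 were tested, gave 3 higher, 2 lower and 28 that did not pass, with a median of -0.05. Over all genes 7.95% were higher and 8.28% lower, so this list was near the background. The higher ones were Pltp, the phospholipid transfer protein of plasma (26.9 and 35.1 FPKM in the controls, 45.5 and 45.4 FPKM in the other libraries, log2 fold change 0.55), Srebf1, which encodes the SREBP isoforms that favor fatty acid synthesis (88.7 and 111.3 against 144.8 and 131.3 FPKM, 0.47), and Lrpap1, the chaperone of the LDL receptor family (20.7 and 20.6 against 25.3 and 32.2 FPKM, 0.45). The lower ones were Nr1h2, the oxysterol receptor LXR beta (51.7 and 50.3 against 39.4 and 37.2 FPKM, -0.40), and Lipa, the lysosomal acid lipase that frees cholesterol from lipoprotein esters (34.8 and 42.1 against 29.4 and 26.9 FPKM, -0.43). Their adjusted p lay between 0.239 and 0.289 by limma. None of the 5 overlapped between the genotypes, as was so for 51.3% of all genes. Having been picked by their p, which favors genes without overlap, they give no further evidence by this.

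Markers of other cells differed with the same labels, and outside the lymphocyte list none was at 0 in any library. Markers counted as higher or lower between the genotypes had an unadjusted p under 0.05 by limma. Of all genes tested, 7.95% were higher and 8.28% lower by that rule. Summed macrophage markers had 438.9 and 580.7 FPKM in the controls and 739.2 and 783.0 FPKM in the Sox4-MKO-labelled libraries, with 12 of 16 higher. Sox4f/f mouse 1, the lowest library at 12 of the 16 synthesis enzymes, was the lowest at 13 of 16 macrophage and at 9 of 9 skeletal muscle markers. In these lists 15 and 9 markers had a positive log2 fold change, which by itself makes a control likelier to be lowest. Skeletal muscle markers summed to 207.2 and 787.0 FPKM against 14880 and 2677 FPKM, with 8 of 9 higher. Stromal markers summed to 302.7 and 343.2 FPKM against 752.3 and 681.6 FPKM, with all 6 higher. The muscle sum was higher in Sox4-MKO mouse 1 than in mouse 2, and of the 16 synthesis enzymes 10 were higher in mouse 2 and 6 in mouse 1. Brown adipocyte markers summed to 8616 and 8421 FPKM against 4425 and 5051 FPKM. General adipocyte markers summed to 11990 and 12060 FPKM against 10600 and 13510 FPKM, with 2 of 8 lower, and endothelial markers to 156.4 and 194.4 FPKM against 119.6 and 171.5 FPKM, with 1 of 6 lower. Of the 6 lymphocyte markers, which summed to 1.47 to 5.87 FPKM, 1 was tested and did not pass, and Ms4a1 was listed at 0 in Sox4-MKO mouse 1. The part of these cells in the differences of the cholesterol genes was not tested.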

How the data were processed

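RNA sequencing of BAT from 4 mice, grouped by the sample labels, was used, with 1 library per mouse. The authors deposited 1 FPKM value per gene and library, in 55387 rows, and all sample columns were used. The submitters' processing notes name Cufflinks 2.1.1, Cuffdiff and mm10. The aligner and gene annotation are not given in the sources used here. The labels describe a column kit and a stranded library, the methods TRIzol and TruSeq. Coordinates came from GENCODE M21 (GRCm38) by symbol, and 16 of the 31 members have an overlapping annotated gene, 11 of them on the opposite strand.

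The deposited values are not counts. They were fitted as log2(FPKM + 1) by limma 3.58.1 in R 4.3.3 with genotype as the only term and a trended prior, for genes whose mean FPKM exceeded 1 in either genotype. p-values are two-sided, Benjamini-Hochberg adjusted over all genes tested, and measure the spread between these mice only. Fold changes on this scale understate those of low genes. The code was tested on simulated data. The members and gene lists were chosen with earlier results of these data known. All members are named, with statistics for those with an unadjusted p under 0.05 and the largest change in each role group, and, from the further pathway list, the genes with an unadjusted p under 0.05.

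Depth was estimated from the smallest values listed for genes with 1 transcript of at least 1500 nt, where 1 fragment on 2 kb was worth 0.0295 to 0.0408 FPKM. It is approximate. As alternatives, the mouse number was added as a replicate block, each library was left out, and libraries were brought to a common median, quantile normalized or rescaled with mitochondrially encoded genes and Ucp1 removed. Further ones were an FPKM limit of 5 or none, a pseudocount of 0.1 and no trended prior. Promoters were taken from RefSeq (GRCm38.p6). Tables and figures used Python 3.11.15, pandas 2.3.3, numpy 2.4.6 and matplotlib 3.10.9.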

Additional observations from a re-analysis of the deposited data

How the results depend on the processing

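Of the 10 members with an unadjusted p under 0.05, Nsdhl and Sc5d kept it under all 12 alternatives, and 8 lost it in at least one. No call among these 10 changed direction. With each library left out in turn, the members called ranged from 3 to 8, those called higher from 2 to 8 and those called lower from 0 to 2, the median log2 fold change of the members from 0.13 to 0.27, and the genes called among all tested from 849 to 2394. The fewest calls were those without Sox4f/f mouse 1 (3 members, 849 genes), and the fit without Sox4f/f mouse 2 called 1070 genes and no member lower. Adjusted calls over all genes were 1, 1 and 5 without Sox4-MKO mouse 2, Sox4f/f mouse 1 and Sox4f/f mouse 2, and 0 under each other alternative. Dhcr7 also lost its call under a common median (unadjusted p = 0.0640) and quantile normalization (0.0521), and under the latter 1 member, Hmgcs1, was called lower. Rescaling without mitochondrially encoded genes and Ucp1 moved the members' median to 0.27 and the calls over all genes to 745 lower and 1322 higher, from 1066 and 1024. The cause of these shifts was not tested.

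Directions reversed at 8 uncalled members. With each library left out in turn, log2 fold changes ranged from -0.11 to 0.28 for Mvk (-0.10 without Sox4-MKO mouse 1, lowest without Sox4f/f mouse 1), from -0.66 to 0.040 for Fdft1 (highest without Sox4-MKO mouse 2), from -0.12 to 0.017 for Srebf2 (highest without Sox4f/f mouse 2), from -0.31 to 0.019 for Vldlr (highest without Sox4f/f mouse 1), from -0.12 to 0.17 for Lrp1 (lowest without Sox4-MKO mouse 1), from -0.28 to 0.22 for Scarb1 (highest without Sox4f/f mouse 1), from -0.014 to 0.25 for Mylip (lowest without Sox4f/f mouse 2) and from -0.044 to 0.72 for Soat1 (lowest without Sox4f/f mouse 1). Srebf2 was also at 0.016 after the rescaling, and Scarb1 at 0.033 after quantile normalization and 0.044 after the rescaling.

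The deviations of same-numbered mice from their genotype means had a correlation of -0.0122 over 12877 genes in 2 pairs. With 2 mice per genotype, this value cannot show whether same-numbered mice shared a litter or a batch. With the mouse number as a replicate block, 13 members were called, 11 higher and 2 lower, and 1908 genes in all. The block added Sqle, Cyp51 and Insig1 and removed none of the 10. Fits with a library left out leave 1 genotype with a single mouse, which is assumed to vary like the others. Soat1 and Mvd were the least covered members, and the number of mice limits the precision.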

Other observations

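Fatty acid synthesis, the other lipid route under SREBP control, was listed with 15 genes, all tested. At an unadjusted p under 0.05, 5 were higher under the Sox4-MKO label, none was lower and 10 did not pass, with a median log2 fold change of 0.31, where 7.95% of all genes were higher and 8.28% lower. Me1, malic enzyme, which supplies reducing power, had 127.9 and 180.9 FPKM in the controls and 510.2 and 423.1 FPKM in the other libraries, a log2 fold change of 1.60 (limma SE 0.21, adjusted p = 0.191). Scd2, a desaturase, had 23.7 and 57.5 FPKM against 89.2 and 122.1 FPKM, and Acss2, which makes acetyl-CoA from acetate, had 80.8 and 125.8 FPKM against 235.1 and 178.0 FPKM. Elovl6, an elongase, had 91.2 and 99.4 FPKM against 155.4 and 184.9 FPKM, and Fads1, another desaturase, 8.63 and 10.2 FPKM against 12.4 and 16.5 FPKM. At none of these 5 did the genotypes overlap, as at 51.3% of all genes. The 5 were picked by their p, which favors genes without overlap, so this adds nothing to the p. Sox4f/f mouse 1 was the lowest library at 9 of the 15 genes, against 22.7% of all genes. These shares are not like for like, since 12 of the 15 had a positive log2 fold change, which favors a control as the lowest. Fasn and Scd1 were listed at 0 in 3 libraries and had 652.2 and 4491 FPKM in the remaining one, Sox4f/f mouse 1, and an exact 0 can be a failed estimate.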
